A study of Rattus norvegicus with 16 samples.

Results

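The red blood cell and globin genes examined here were Hba-a3, Hbb-b1, Hbb, Alas2, Slc4a1, Epb42 and Ahsp, 7 genes of 34851 distinct probe names on the array. They were read by 8 probes, 7 of which passed a filter on dim signals. The genes were chosen by name as a set of red cell transcripts, and Hba-a3 was singled out for its on-off values between arrays, so its levels are described without a test and 6 probes were tested. The probe for Hba-a3 carries the older name Hba-a1 in the array files. Its transcript is now called Hba-a3 in the RefSeq gene table, and a different probe, named Hba1 in the files, reads the gene now called Hba-a1. The current names are used throughout. The other 6 genes were found by their names in the files.

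The RNA came from the ovaries of Jcl:SD females (Sprague-Dawley rats), with 1 single-colour whole-genome array for each of 16 samples. The groups were BRCA1+/- rats given olaparib, BRCA1+/- rats given vehicle, wild-type rats given olaparib and wild-type rats given vehicle. Each held n = 4 samples, numbered as ovaries in their titles. BRCA1+/- rats keep 1 working copy of Brca1, which acts in the repair of DNA double-strand breaks, and olaparib is a PARP inhibitor. Olaparib was injected under the skin at 50 mg/kg each day for 14 days from 3 weeks of age, and ovaries were collected 24 h after the last dose. The labels give neither the composition and schedule of the vehicle nor the age of the vehicle rats. The labels describe no perfusion or any other removal of blood from the ovaries. Each value below is a log2 signal, the deposited log2 of the processed spot intensity after subtraction of a constant for the array. It is comparable between arrays for the same probe, not between probes.

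Red cells carry oxygen on hemoglobin, a tetramer of 2 α-type and 2 β-type globin chains, each holding a heme group. The chains are made in erythroid precursors of the bone marrow, and the α-type and β-type genes lie in separate clusters on different chromosomes. Circulating reticulocytes, the youngest red cells, keep globin mRNA for a short time after they lose their nucleus, so whole-tissue RNA from a vascular organ such as the ovary usually contains globin transcripts. Alas2 makes the erythroid form of the enzyme that starts heme synthesis. Ahsp is a chaperone that holds free α-globin. Slc4a1 is band 3, the anion exchanger of the red cell membrane, and Epb42 is a protein of the membrane skeleton that binds to it.

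The probes that carry the on-off pattern are shown first, with neighbours for comparison. Capitals in the Hba-a3 and Hba-a2 probes mark the longest run that both contain, 12 bases, and capitals in the Hbb-b1 and Hbe2 probes mark their longest shared run, 14 bases. These 2 pairs were the only ones with a shared run of 12 bases or more among probes of different globin genes, out of 120 pairs from 16 globin probes. Probes were compared with each other, not with the transcripts of other globin genes, so the count does not show how specific a probe is. The Hbq1b probe has no capitals.
Hba-a3: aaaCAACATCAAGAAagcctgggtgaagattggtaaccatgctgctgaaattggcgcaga
Hba-a2: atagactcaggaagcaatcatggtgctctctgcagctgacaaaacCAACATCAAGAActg
Hbq1b: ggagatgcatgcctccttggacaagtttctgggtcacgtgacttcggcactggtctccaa
Hbb-b1: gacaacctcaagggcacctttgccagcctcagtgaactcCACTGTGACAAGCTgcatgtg
Hbe2: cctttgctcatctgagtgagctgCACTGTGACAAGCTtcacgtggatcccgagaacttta

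The array files place the Hba-a3 probe on chromosome 10 at 15559461 to 15559520, minus strand, of the build rn4. The Hba-a2 probe lies at 15571700 to 15571759, the Hbq1b probe shown at 15581801 to 15581859, and the Hba-a1 probe at 15584360 to 15584419 of the same chromosome and strand. The Hbb-b1 probe shown lies on chromosome 1 at 161597660 to 161597719 and the Hbe2 probe at 161648636 to 161648695, both on the minus strand. Positions are those of the files and were not checked against a genome. The files list transcripts of more than 1 globin gene for the Hba-a2 and Hbbl1 probes, so a signal of these probes can hold more than 1 gene.

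Hba-a3, an α-type globin gene, had signal on 13 arrays and none above background on the other 3. In BRCA1+/- rats with olaparib its log2 signal was 4.03, -7.84, 4.24 and 5.25, against 4.35, 4.62, 4.91 and 5.01 in BRCA1+/- rats with vehicle. In wild-type rats with olaparib it was 4.00, -7.90, -7.70 and 2.91, against 3.90, 4.83, 4.27 and 3.66 in wild-type rats with vehicle. The 3 low arrays were BRCA1+/- olaparib replicate 2 and wild-type olaparib replicates 2 and 3, and all 8 vehicle arrays had signal. On the 3 low arrays the lowest signal of any probe that still counted as well above background was -5.98, -5.77 and -6.32. The Hba-a3 value there was not well above background, so it is only a bound. The dimmest array with signal, wild-type olaparib replicate 4, lay 410-fold above the highest of these 3 values. They come from other probes and are no detection limit for Hba-a3. The Hbq1b probe shown read -5.82 on BRCA1+/- olaparib replicate 2, above the -5.98 of that array, yet failed the background test. Among 45586 usable probes the Hba-a3 probe was the only one well above background on exactly these 13 arrays, a count made after its values were seen. Large jumps were not particular to it. With the arrays of each probe in order of signal, 29 usable probes had a gap over 5 log2 units between neighbouring arrays. A gap over 10 was found for 2 probes, and Hba-a3 ranked 2 by this gap. The probe was printed as 1 spot per array. Since Hba-a3 was chosen for this pattern, the position of the low arrays in the olaparib groups is a description.

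**Figure D1:**
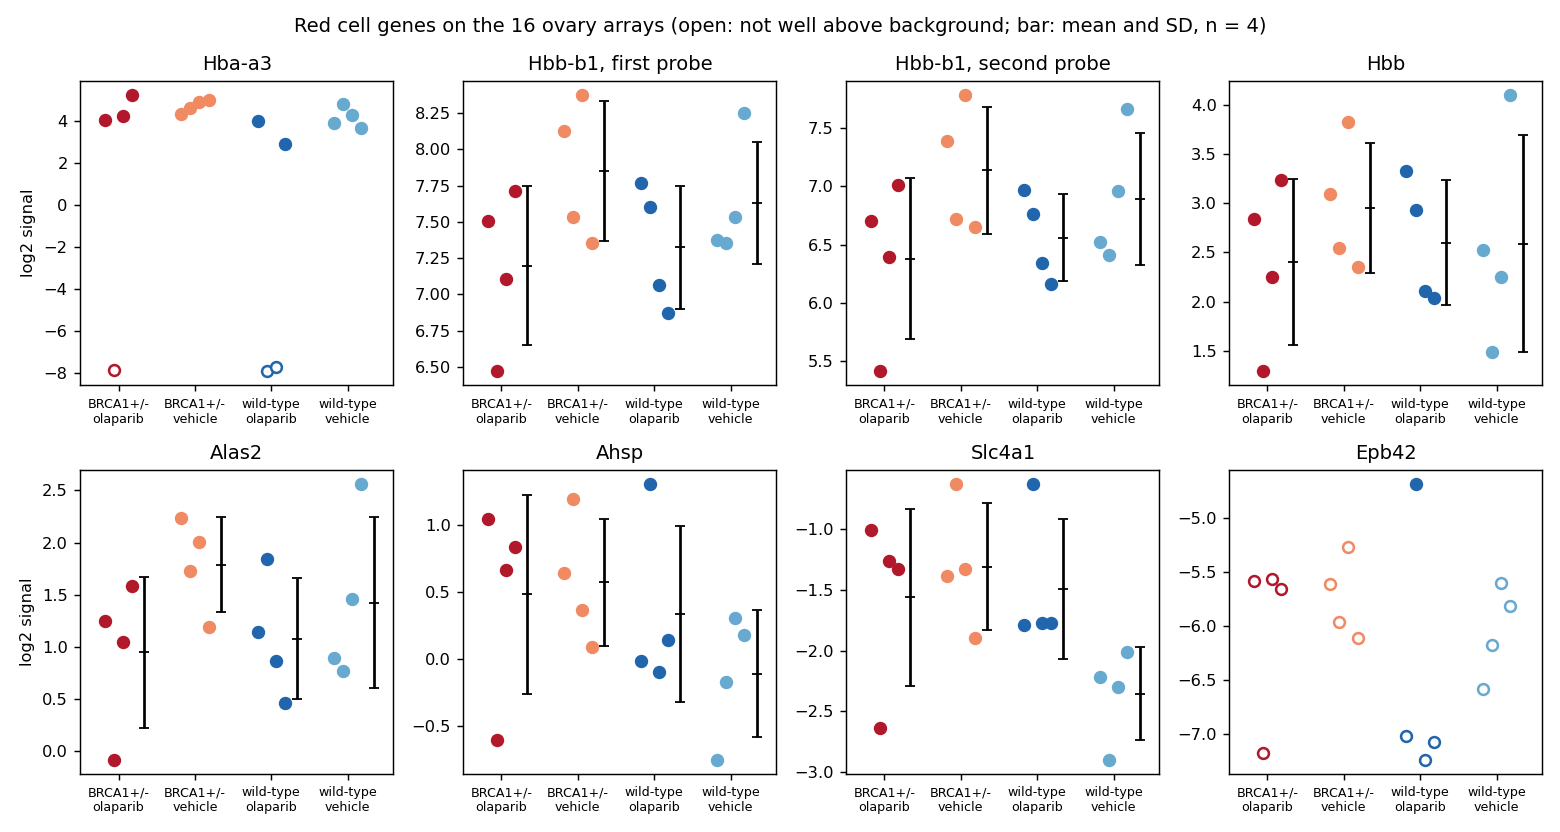
Log2 signal of the 8 member probes (vertical axes, scaled for each probe) on the 16 arrays in 4 groups (horizontal axes). Filled points are arrays with the probe well above background and open points are arrays without, and bars show the mean and SD (n = 4), left out for Hba-a3 and Epb42. Hba-a3 reads between -7.90 and -7.70 on 3 olaparib arrays, and the other members vary over about 2 to 3 log2 units with overlap between most groups.

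The 3 arrays without Hba-a3 signal were not alike in other red cell genes. On BRCA1+/- olaparib replicate 2 the first Hbb-b1 probe read 6.47, the lowest of the 16 arrays, while wild-type olaparib replicates 2 and 3 read 7.60 and 7.06. Slc4a1 read -2.63 on the first of these arrays and -0.63 and -1.77 on the others. The arrays lay on both slides, replicates 1 and 2 of each group on slide 1 and replicates 3 and 4 on slide 2. The mean of 5 oviduct and ciliated epithelium markers on the 3 arrays was -0.96, -1.11 and 3.45, so 2 of the 3 arrays were low in these markers.

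Hba-a3 lies in the α-globin cluster, and in the RefSeq gene order its neighbours on one side are Hba-a2, Hbq1b, Hba-a1, Hbz, Nprl3, Mpg and Rhbdf1. Hba-a1 and Hba-a2 encode adult α-globin, Hbq1b is a theta-type gene of the cluster and Hbz encodes the embryonic ζ chain. Both Hbq1b probes were low on the same 3 arrays. The first read -4.58 on BRCA1+/- olaparib replicate 2 and -3.09 and -4.06 on wild-type olaparib replicates 2 and 3, and between -1.19 and 0.18 on the other 13. The second read -5.82, a value not well above background, -3.65 and -4.45 on the same arrays and between -1.01 and 0.45 on the others. The second Hbq1b probe and the Hba-a3 probe were the only 2 of the usable probes with these 3 arrays lowest and more than 2 log2 units below the rest.

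Hba-a1 and Hba-a2, which flank Hbq1b, had signal on all 16 arrays. Hba-a1 read 7.50, 8.58 and 8.49 on the 3 arrays without Hba-a3, within a range of 7.50 to 9.70 over all arrays. Hba-a2 read 3.34, 4.89 and 3.41 there, within 3.30 to 5.37, by a probe whose signal can hold other globin genes as well. The 7.50 of Hba-a1 was its lowest value, and 3.34 and 3.41 lay near the lowest of Hba-a2. Luc7l, a splicing factor gene on the other side of Hba-a3, read 1.80, 2.11 and 2.01, within 1.60 to 2.40. Rhbdf1, the farthest gene of this neighbourhood, was lower than most arrays at 1.45, 1.56 and 1.83, within 1.45 to 2.73. Nprl3 and Mpg, which lie nearer, read 2.00, 2.26 and 1.75, within 1.75 to 2.64, and 0.72, 0.645 and 0.13, within 0.13 to 0.89. For both, wild-type olaparib replicate 3 was the lowest array. In gene order, Hba-a2 lies between the low genes Hba-a3 and Hbq1b, and Hba-a1 beyond them. Hbz was not well above background on any array by either of its probes.

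**Figure D2:**
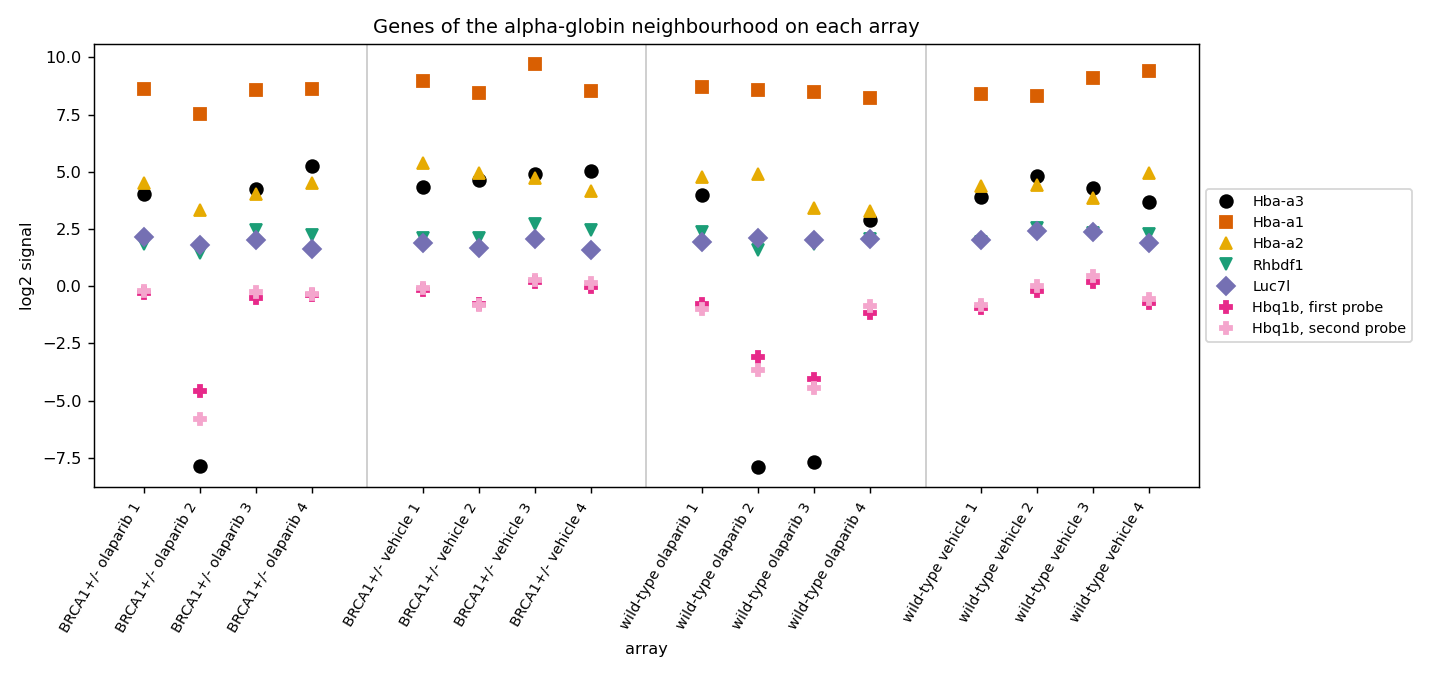
Log2 signal (vertical axis) of Hba-a3, Hba-a1, Hba-a2, both Hbq1b probes, Luc7l and Rhbdf1 on each of the 16 arrays (horizontal axis, grouped). Nprl3 and Mpg were measured but are not plotted. Hba-a3 and both Hbq1b probes drop on BRCA1+/- olaparib 2 and wild-type olaparib 2 and 3, while Hba-a1 stays between 7.50 and 9.70 and Luc7l between 1.60 and 2.40.

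Promoters are shown for 3 α-type genes and for Hbb-b1, because Hba-a3 and its neighbours gave different patterns. RefSeq promoter entries of the build GRCr8 were found for 5 of the 7 member genes, not for Slc4a1 and Ahsp. Each sequence below is the 120 bases before the annotated start, on the minus strand, and capitals mark matches on either strand to motifs common in globin promoters, namely the CCAAT box, the TATA box spelled TATAAA, the CACCC box and the factor motif GATAA.
Hba-a3, chr10:15816944-15817063: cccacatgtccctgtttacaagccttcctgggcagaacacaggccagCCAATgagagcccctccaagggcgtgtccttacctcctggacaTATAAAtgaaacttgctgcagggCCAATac
Hba-a2, chr10:15829139-15829258: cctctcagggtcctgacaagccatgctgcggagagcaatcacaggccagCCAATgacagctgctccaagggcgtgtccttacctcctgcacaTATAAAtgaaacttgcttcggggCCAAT
Hba-a1, chr10:15842581-15842700: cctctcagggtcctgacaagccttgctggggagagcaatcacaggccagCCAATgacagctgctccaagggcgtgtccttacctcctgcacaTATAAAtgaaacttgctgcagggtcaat
Hbb-b1, chr1:167643521-167643640: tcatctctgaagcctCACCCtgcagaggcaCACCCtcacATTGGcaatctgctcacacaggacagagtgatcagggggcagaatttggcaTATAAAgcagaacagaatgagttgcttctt

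The windows of Hba-a2 and Hba-a1 were identical at 95.8% of 120 bases. Shifted by 2 bases, Hba-a3 matched Hba-a2 at 92.5% of the 80 bases next to the start and at 73.7% of all 118 compared. Each of the 3 α-type windows held TATAAA and a CCAAT about 70 bases before the start. Hbb-b1 held 2 CACCC matches, at 105 and 90 bases before the start. The window of Hbq1b, which is not shown, held no match to any of these motifs. Over 33469 rat promoters, a window of this length held CCAAT in 19.9%, TATAAA in 6.66%, CACCC in 29.5% and GATAA in 11.2%. None of these motifs contains another. A match is a description of the letters, not of a factor's binding.

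Hbb-b1 and Hbb are β-type globin genes of the cluster on chromosome 1. The first Hbb-b1 probe read 7.51, 6.47, 7.10 and 7.71 in BRCA1+/- rats with olaparib, against 8.13, 7.54, 8.38 and 7.36 in BRCA1+/- rats with vehicle. In wild-type rats it read 7.76, 7.60, 7.06 and 6.87 with olaparib, against 7.37, 7.36, 7.54 and 8.25 with vehicle. The groups overlapped in both genotypes. Both probes are named Hbb-b1 in the files but placed apart, and whether they read the same gene was not checked. The second Hbb-b1 probe, at 161590879 to 161591170, averaged 6.38 ± 0.69 with olaparib and 7.14 ± 0.54 with vehicle in BRCA1+/- rats (SD, n = 4 each). In wild-type rats it averaged 6.56 ± 0.37 with olaparib and 6.89 ± 0.57 with vehicle (SD, n = 4 each). Both Hbb-b1 probes were printed as 10 spots per array, and the median variation between the spots of an array was 2.15% for the first and 2.22% for the second.

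Hbb, at 161620134 to 161620193, read 2.84, 1.29, 2.25 and 3.24 in BRCA1+/- rats with olaparib, against 3.09, 2.54, 3.83 and 2.35 in BRCA1+/- rats with vehicle. In wild-type rats it read 3.33, 2.93, 2.11 and 2.04 with olaparib, against 2.52, 1.49, 2.26 and 4.10 with vehicle. The highest array of all was a wild-type vehicle array and the lowest a BRCA1+/- olaparib array, and all 4 groups overlapped.

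Alas2, the erythroid enzyme that opens heme synthesis, is on the X chromosome at 39810353 to 39810412. It read 1.25, -0.08, 1.05 and 1.58 in BRCA1+/- rats with olaparib, against 2.24, 1.73, 2.00 and 1.19 in BRCA1+/- rats with vehicle. In wild-type rats it read 1.14, 1.84, 0.86 and 0.47 with olaparib, against 0.89, 0.77, 1.46 and 2.57 with vehicle. In BRCA1+/- rats 2 of the 4 olaparib arrays lay below every vehicle array, and the group ranges overlapped.

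In BRCA1+/- rats all 6 tested probes of the members other than Hba-a3 had a lower mean with olaparib than with vehicle, and none passed the test. The log2 difference was -0.65 ± 0.32 for the first Hbb-b1 probe (SE of limma, adjusted p = 1) and -0.76 ± 0.37 for the second (adjusted p = 1). It was -0.55 ± 0.54 for Hbb and -0.84 ± 0.44 for Alas2, again with limma adjusted p = 1 for each. The intervals of 95% reached from -1.34 to 0.04 for the first Hbb-b1 probe and from -1.77 to 0.09 for Alas2. Slc4a1 differed by -0.25 ± 0.38 and Ahsp by -0.09 ± 0.40. Limma called 0 of the 6 member probes in this comparison, beside 0% of all 26820 probes tested, and 402 probes had an unadjusted p under 0.05. Over all probes the median difference was 0.004 and 49.38% lay below 0. Without BRCA1+/- olaparib replicate 2, the array lowest for 4 of the 7 member probes that passed the filter and among the lowest 2 for all 7, the differences were -0.41 for the first Hbb-b1 probe, -0.44 for the second, -0.18 for Hbb and -0.49 for Alas2. Without that array Slc4a1 differed by 0.11 and Ahsp by 0.28. None of these differences was called, and in whole ovaries the number of red cells and the RNA per red cell cannot be told apart.

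In wild-type rats the members did not move one way. The difference between olaparib and vehicle was -0.31 ± 0.32 for the first Hbb-b1 probe, -0.33 ± 0.37 for the second, 0.01 ± 0.54 for Hbb and -0.34 ± 0.44 for Alas2 (SE of limma, adjusted p from 0.992 to 0.999). The sign differed between slides. On slide 1 the first Hbb-b1 probe differed by 0.32 and Alas2 by 0.66, and on slide 2 by -0.93 and -1.35. Limma called 0 of the 6 member probes, beside 0% of all probes, where 1127 had an unadjusted p under 0.05. The difference between the genotypes in the olaparib effect was also not called for any member. It was -0.34 ± 0.46 for the first Hbb-b1 probe, -0.49 ± 0.62 for Alas2 and -1.11 ± 0.54 for Slc4a1 (adjusted p from 0.976 to 0.979 by limma).

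Ahsp, the α-globin chaperone, is on chromosome 1 at 187561567 to 187561626. It read 1.04, -0.61, 0.67 and 0.83 in BRCA1+/- rats with olaparib, against 0.64, 1.20, 0.36 and 0.09 in BRCA1+/- rats with vehicle. In wild-type rats it read -0.01, 1.31, -0.09 and 0.14 with olaparib, against -0.75, -0.17, 0.30 and 0.18 with vehicle. Wild-type olaparib replicate 2 stood above the other 3 arrays of its group, and the groups overlapped. The difference between olaparib and vehicle in wild-type rats was 0.45 ± 0.40 (adjusted p = 0.991, limma).

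Slc4a1, band 3 of the red cell membrane, is on chromosome 10 at 91455352 to 91455411. It read -1.01, -2.63, -1.27 and -1.33 in BRCA1+/- rats with olaparib, against -1.39, -0.63, -1.33 and -1.89 in BRCA1+/- rats with vehicle. In wild-type rats it read -1.79, -0.63, -1.77 and -1.78 with olaparib, against -2.21, -2.90, -2.30 and -2.01 with vehicle. The 4 wild-type vehicle arrays lay below every array of the wild-type olaparib and BRCA1+/- vehicle groups. In each of these 2 comparisons Slc4a1 was the only tested member probe whose groups did not overlap, 1 of 6. Groups did not overlap for 1.19% of all tested probes between olaparib and vehicle in wild-type rats, and for 3.39% between BRCA1+/- and wild-type rats with vehicle. Between olaparib and vehicle in BRCA1+/- rats the groups overlapped for all 6 member probes, beside 1.22% of all probes without overlap, and between genotypes with olaparib likewise, beside 0.638%. The difference between olaparib and vehicle in wild-type rats was 0.86 ± 0.38 (95% interval 0.05 to 1.67, unadjusted p = 0.0384, adjusted p = 0.991 by limma). It did not pass the test. It was 1.34 within slide 1 and 0.38 within slide 2.

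Between genotypes with vehicle, all 6 tested probes other than Hba-a3 had a higher mean in BRCA1+/- rats, where 56.66% of all probes had a lower one, and none passed. Within slide 2, 5 of the 6 were lower in BRCA1+/- rats, by -0.029 and -0.09 for the Hbb-b1 probes, -0.088 for Hbb, -0.41 for Alas2 and -0.015 for Ahsp. Slc4a1 averaged -1.31 ± 0.52 in BRCA1+/- rats and -2.36 ± 0.38 in wild-type rats (SD, n = 4 each), a difference of 1.05 ± 0.38 (SE, 95% interval 0.24 to 1.86, adjusted p = 0.87 by limma). It was 1.55 within slide 1 and 0.54 within slide 2. Ahsp averaged 0.57 ± 0.47 in BRCA1+/- rats and -0.11 ± 0.47 in wild-type rats (SD, n = 4 each), a difference of 0.68 ± 0.40 (SE, adjusted p = 0.87 by limma), with 1.38 within slide 1. The differences of Hbb-b1, Hbb and Alas2 lay between 0.22 and 0.37. Limma called 0 of the 6 member probes, beside 0% of all probes, of which 1480 had an unadjusted p under 0.05. Between genotypes with olaparib the 6 probes differed by -0.20 to 0.15, and limma called 0 of the 6 beside 0% of all, with 257 probes at an unadjusted p under 0.05. The olaparib and genotype comparisons share groups: a low wild-type vehicle group enters both differences of Slc4a1.

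**Figure D3:**
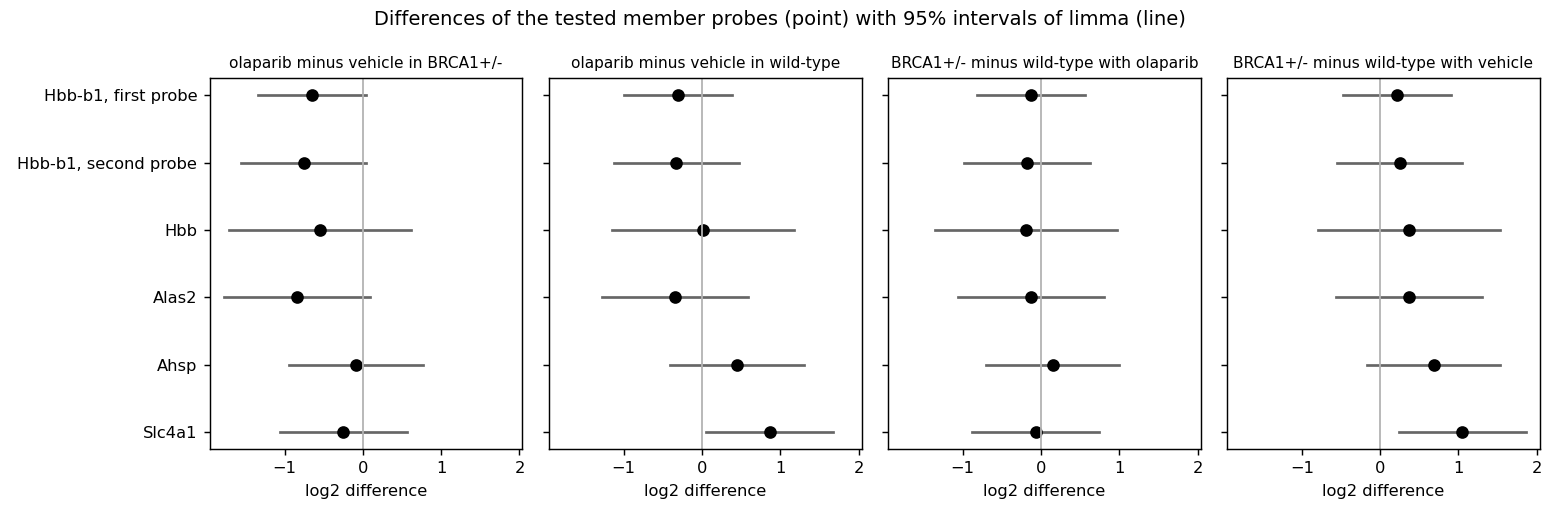
Log2 differences of the 6 tested member probes other than Hba-a3 (points) with 95% intervals (lines) in 4 comparisons; horizontal axes are log2 differences. In BRCA1+/- rats the globin and Alas2 points lie between -0.84 and -0.55 with intervals that include 0, and the intervals of Slc4a1 exclude 0 in wild-type rats with olaparib and between genotypes with vehicle before adjustment.

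Epb42, on chromosome 3 at 107808613 to 107808672, was well above background on 1 array, wild-type olaparib replicate 2, and was not tested. It read -4.68 on that array and between -7.24 and -5.27 on the other 15. The same array held the highest Ahsp value of the 16, at 1.31, and a Slc4a1 value of -0.63, equal after rounding to that of BRCA1+/- vehicle replicate 2.

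Several members varied together between ovaries. Over the 16 arrays Hbb-b1 and Alas2 had a Pearson r of 0.914 (permutation p = 1e-05, the smallest 100000 resamples can give, adjusted p = 0.0001) and a Spearman rho of 0.876 (permutation p = 5e-05, adjusted p = 0.000233). Hbb-b1 and Hbb had r = 0.89 (permutation p = 2e-05, adjusted p = 0.0001) and rho = 0.924 (permutation p = 1e-05, adjusted p = 0.0001). Hbb and Alas2 had r = 0.842 (permutation p = 7e-05, adjusted p = 0.000175) and rho = 0.844 (permutation p = 0.0001, adjusted p = 0.00025). Slc4a1 and Ahsp had r = 0.872 (permutation p = 4e-05, adjusted p = 0.000133) and rho = 0.853 (permutation p = 7e-05, adjusted p = 0.000233). A total of 10 pairs among 5 genes were tested, and p-values were adjusted over them. The array-wide signal scale is shared by all pairs.

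Within slides these 4 relations kept their sign. The r of Hbb-b1 and Alas2 was 0.893 on slide 1 and 0.95 on slide 2, that of Hbb-b1 and Hbb 0.828 and 0.945, that of Hbb and Alas2 0.761 and 0.924, and that of Slc4a1 and Ahsp 0.912 and 0.62. After the 2 arrays farthest from the median of the first gene were left out, r was 0.891, 0.823, 0.759 and 0.794 for the same pairs.

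The other pairs joined a globin gene or Alas2 with Slc4a1 or Ahsp. Hbb-b1 had r = 0.327 with Slc4a1 (permutation p = 0.216, adjusted p = 0.216) and rho = 0.253 (permutation p = 0.341, adjusted p = 0.341). Alas2 and Ahsp had r = 0.568 (permutation p = 0.0214, adjusted p = 0.0427) and rho = 0.662 (permutation p = 0.00657, adjusted p = 0.0131), with 0.768 on slide 1, 0.19 on slide 2 and 0.606 without the 2 arrays farthest from the Alas2 median. The other 4 pairs had r from 0.365 to 0.5, and none passed after adjustment. Over deviations from the group means, r was 0.731 for Alas2 and Slc4a1 and 0.725 for Alas2 and Ahsp, and 8 of the 10 pairs passed after adjustment. These permutations treated the deviations as freely exchangeable although the group means had been removed, so their p-values can be too small. The difference in r between pairs was not tested.

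**Figure D4:**
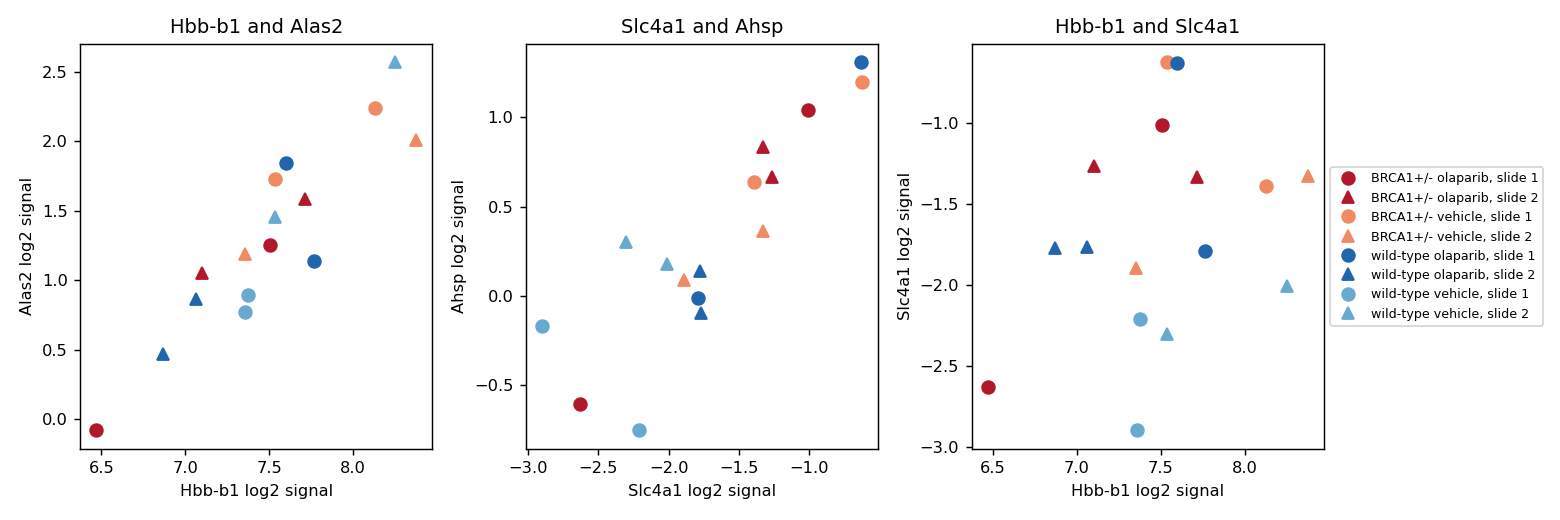
Log2 signal of a member gene (vertical axes) against another (horizontal axes) for 16 arrays, coloured by group, with circles for slide 1 and triangles for slide 2. Hbb-b1 and Alas2 (r = 0.914) and Slc4a1 and Ahsp (r = 0.872) line up, and Hbb-b1 and Slc4a1 (r = 0.327) scatter.

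The genes most like each member were found by Pearson r over 16 arrays among the named probes, as a description. For Hbb-b1 they were Hbe2 (0.954), a β-type globin gene, Alas2 (0.914) and Hba-a1 (0.897). Hbb was nearest to Hbb-b1 (0.898, by its second probe), Hbe2 (0.888) and Gbf1 (0.887), a factor of Golgi transport. Alas2 was nearest to Hbb-b1 (0.92), Hbe2 (0.91) and Gbf1 (0.848). For Slc4a1 they included Ahsp (0.872) and Alox15 (0.812), a lipoxygenase. For Ahsp they included Slc4a1 (0.872) and Cd52 (0.775), a leukocyte surface gene. For Epb42, read mostly below background, they included Ahsp (0.731) and Cnn2 (0.72). Hba-a3 was nearest to Hbq1b (0.96), Pdgfd (0.781) and Rhbdf1 (0.769), and these values rest on the 3 low arrays. Over the 13 arrays with Hba-a3 signal they were 0.672, 0.182 and 0.466.

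Of 10 other globin genes on the array, read by 12 probes, 6 were tested. The 6 had a lower mean with olaparib in BRCA1+/- rats, beside 49.38% of all probes. In wild-type rats 5 of 6 did, beside 61.8% of all probes, and 0 of the 6 were called. Their median difference in BRCA1+/- rats was -0.69, beside 0.004 for all probes, and in wild-type rats -0.35, beside -0.08. Without BRCA1+/- olaparib replicate 2, left out after its values were seen, the median in BRCA1+/- rats was -0.33, with -0.325 for Hba-a1, -0.33 for Hbe2, -0.69 for Hbb-bs and -0.19 for the first Hbq1b probe. Hba-a1 averaged 8.32 ± 0.55 with olaparib and 8.92 ± 0.57 with vehicle in BRCA1+/- rats (SD, n = 4 each), a difference of -0.60 ± 0.33 (SE, adjusted p = 1 by limma). Hbb-bs, an adult β-type gene, differed by -1.17 ± 0.61 and Hba-a2 by -0.72 ± 0.41 (SE, adjusted p = 1 by limma). In wild-type rats Hbbl1 differed by -0.45 ± 0.31. Hbe2 differed by -0.67 ± 0.40 in BRCA1+/- rats and by -0.38 ± 0.40 in wild-type rats. Hbe1 and LOC502358 were not well above background on any array, and Hbg1 on 3. The first Hbq1b probe differed by -1.84 ± 0.87 in wild-type rats (SE, adjusted p = 0.991 by limma), a value that holds 2 of its 3 low arrays.

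Heme synthesis enzymes other than Alas2 and mitochondrial transporters of the pathway, which many tissues express, gave 11 tested genes and 0 calls. In BRCA1+/- rats 9 had a higher mean with olaparib and 2 a lower one, with a median of 0.09. Alad, the enzyme after Alas in the pathway, averaged 6.68 ± 0.17 with olaparib and 6.25 ± 0.24 with vehicle (SD, n = 4 each; difference 0.43 ± 0.20, SE, adjusted p = 1 by limma). Fech, which inserts iron into heme, differed by -0.37 ± 0.24 in BRCA1+/- rats and 0.33 ± 0.24 in wild-type rats. Slc25a37, a mitochondrial iron importer, differed by -0.47 ± 0.33 in wild-type rats, and Abcb10, a mitochondrial transporter, by 0.13 ± 0.14 as the mean over both genotypes.

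Of the red cell membrane and skeleton genes, 13 were tested and 0 were called. In wild-type rats 10 had a higher mean with olaparib, with a median of 0.27 beside -0.08 for all probes. Rhd, of the Rh blood group complex, averaged -0.30 ± 1.66 with olaparib and -2.33 ± 0.57 with vehicle in wild-type rats (SD, n = 4 each; difference 2.02 ± 0.89, SE, adjusted p = 0.991 by limma). Sptb, β-spectrin, differed by 1.36 ± 0.64 and Xk by 0.62 ± 0.30 in the same comparison. In BRCA1+/- rats 8 of the 13 had a lower mean with olaparib. Gypc, glycophorin C, differed by -0.27 ± 0.25 in these rats and Aqp1, a water channel also found in endothelium, by -0.41 ± 0.40.

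Erythroid transcription factors and regulators gave 9 tested genes and 0 calls, with medians of -0.09 in BRCA1+/- rats and -0.14 in wild-type rats. Gata1, the lead erythroid transcription factor, was well above background on 10 of 16 arrays. Klf1 differed by -0.26 ± 0.25, Epor, the erythropoietin receptor, by -0.51 ± 0.33, and Hemgn by -0.53 ± 0.33 between olaparib and vehicle in BRCA1+/- rats. Tal1 differed by -0.53 ± 0.34, Lmo2, its binding partner, by -0.64 ± 0.43 and Gata1 by -0.375 ± 0.36 in wild-type rats. Red cell enzyme and reticulocyte genes gave 14 tested genes and 0 calls, with medians of 0.10 in BRCA1+/- rats and -0.15 in wild-type rats. Tfrc, the transferrin receptor, averaged 1.97 ± 0.78 with olaparib and 1.02 ± 0.44 with vehicle in BRCA1+/- rats (SD, n = 4 each; difference 0.94 ± 0.47, SE, adjusted p = 1 by limma). Tspo2 differed by 0.57 ± 0.30 in the same rats. In wild-type rats Bpgm, the bisphosphoglycerate mutase of red cells, differed by -0.28 ± 0.22 and Bnip3l, which acts in the removal of mitochondria from reticulocytes, by -0.23 ± 0.19.

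As facts of the whole series, the 75th percentile of the processed signal ran from 202.25 to 565.78. Between 55.5% and 60.7% of probes passed the scanner's background test on each array. The arrays of a group shared the last part of their scanner barcode on both slides, with 2 arrays of each group on a slide. This part therefore marks no single place on a slide, and it cannot be told apart from group. A Brca1 probe averaged -0.71 ± 0.36 in BRCA1+/- rats with olaparib, -1.10 ± 0.31 in BRCA1+/- rats with vehicle, -0.55 ± 0.495 in wild-type rats with olaparib and -0.43 ± 0.36 in wild-type rats with vehicle (SD, n = 4 each). Granulosa and oocyte markers were present in all groups. The mean of 5 oviduct and ciliated epithelium markers ranged from -1.58 to 3.04 in BRCA1+/- olaparib, -1.70 to 3.79 in BRCA1+/- vehicle, -1.11 to 3.70 in wild-type olaparib and -2.50 to -1.27 in wild-type vehicle arrays. The mean of 6 endothelium markers ranged from 2.52 to 3.30, 2.41 to 3.27, 1.89 to 3.42 and 2.51 to 3.39 in the same groups. The mean of 6 adipocyte markers ranged from -4.61 to -3.16, -4.65 to -2.46, -5.77 to 0.47 and -5.99 to -4.07, and that of 5 platelet markers from -4.55 to -3.60, -3.84 to -3.27, -4.18 to -3.10 and -4.50 to -3.68. Of 4 tested platelet markers, 4 had a lower mean with olaparib in BRCA1+/- rats, with a median of -0.47, and 3 of 4 a higher one in wild-type rats, with a median of 0.37. Of 4 tested adipocyte markers, 4 had a higher mean with olaparib in wild-type rats, with a median of 3.73, as did 5 of 5 oviduct markers, with a median of 3.26. The part of these cells in the red cell values was not tested. Without the 6 arrays of high oviduct markers, the olaparib difference in BRCA1+/- rats was -0.84 for the first Hbb-b1 probe and -1.40 for Alas2. The BRCA1+/- arrays left out were those of slide 2, so these are the values within slide 1, and within slide 2 they were -0.46 and -0.28. The olaparib difference of Slc4a1 in wild-type rats was 1.15 without the 6 arrays.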

How the data were processed

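Per the labels, total RNA from 16 ovaries was labelled with Cy3 and hybridised to single-colour Agilent rat arrays. The authors derived spot intensity values in Agilent Feature Extraction, 10.7 per the submitters' processing notes and 10.7.1.1 per the file headers. The deposited log2 values equalled the log2 processed signal minus an array constant (r = 1.0), a constant within 0.0149 of the log2 of the array's 75th percentile. Probes well above background on 3 or 4 arrays of any group were kept (26820 of 45586 usable probes). Spots of a probe were averaged. limma 3.58.1 (R 4.3.3) fitted 4 group means over all arrays, with p-values adjusted by Benjamini-Hochberg and called at an adjusted p under 0.05. The 16 arrays are 1 per sample. The sample titles number ovaries and name no rat, so they do not show whether each sample is a different rat. The p-values measure the spread between these samples. No depth applies, and the number of arrays limits the precision.

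The members and lists were chosen with earlier results of these data known. Hba-a3 was matched by transcript because the files name its probe Hba-a1. The text names all member probes, the other globin probes, the 3 genes of smallest unadjusted p per list and olaparib comparison, and the 3 genes most like each member. Some genes that this rule names are not reported here. Rhbdf1, Luc7l, Nprl3 and Mpg were also named as neighbours of Hba-a3, after values were seen. Correlations used 100000 permutations, two-sided, in Python 3.11.15 with SciPy 1.17.1. The fit was tested on simulated independent values with changes larger than the differences of the tested member probes. That test does not show how the fit performs for differences of their size. Alternatives were the scanner signal, normexp, quantile normalization, other filters, slide and replicate blocks, each array left out and, chosen after seeing the data, 6 arrays of high oviduct markers left out and each slide alone.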

Additional observations from a re-analysis of the deposited data

Results flagged for a closer look

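Single arrays stood apart from the other 3 of their group in 8 of 60 probe and group combinations examined (7 member probes that passed the filter, Epb42 and the tested other globin probes). Chance alone gives about 1 in 20 such groups, and the count is not read against that, since Hba-a3 was chosen for its pattern and the low values of Hba-a3, Epb42 and the second Hbq1b probe were not well above background. On BRCA1+/- olaparib replicate 2 the lowest values of their group were Hba-a3 at -7.84, Epb42 at -7.17, Hba-a1 at 7.50 and Hbq1b at -4.58 by its first probe and -5.82 by its second, all log2 signals. On wild-type olaparib replicate 2 the highest values of their group were Slc4a1 at -0.63, Epb42 at -4.68 and Ahsp at 1.31. These values are 2 arrays seen through several probes, so they are not independent. The wild-type olaparib group holds 2 arrays without Hba-a3 signal, at -7.90 and -7.70, which is why neither stands alone there.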

How the results depend on the processing

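The count of probes called stayed at 0 in all 6 comparisons under every alternative run, with a lowest adjusted p of 0.0568 for any probe, and the lowest for a member was 0.483. Other scalings, background corrections and filters turned the direction of no member difference. Differences turned under the following settings, some of them as large as those reported and none called on either side, and the cause was not tested. Within slide 1, of 2 arrays per group, olaparib minus vehicle in wild-type rats was 0.32 and 0.40 for the Hbb-b1 probes and 0.66 for Alas2, that of Hbb over both genotypes was 0.19, and Ahsp between genotypes with olaparib was -0.43. Within slide 2 olaparib minus vehicle was 0.52 for Ahsp and 0.31 for Slc4a1 in BRCA1+/- rats, and -0.22 for Ahsp and -1.11 for Hbb in wild-type rats. There BRCA1+/- minus wild-type with olaparib was 0.44 and 0.45 for the Hbb-b1 probes, 0.67 for Hbb, 0.65 for Alas2 and 0.47 for Slc4a1. With vehicle it was -0.029 and -0.09 for the Hbb-b1 probes, -0.088 for Hbb, -0.41 for Alas2 and -0.015 for Ahsp. The interaction within slide 2 was 0.47 and 0.54 for the Hbb-b1 probes, 0.76 for Hbb, 1.07 for Alas2 and 0.74 for Ahsp. Without the 6 arrays of high oviduct markers Hbb in wild-type rats was -0.105 and Ahsp between genotypes with olaparib -0.51.

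With 1 array left out at a time, olaparib minus vehicle ranged from -0.27 to 0.275 for Ahsp and -0.45 to 0.11 for Slc4a1 in BRCA1+/- rats, and from -0.36 to 0.51 for Hbb and -0.60 to 0.037 for Alas2 in wild-type rats. BRCA1+/- minus wild-type with olaparib ranged from -0.037 to 0.51 for Ahsp, -0.30 to 0.12 and -0.39 to 0.14 for the Hbb-b1 probes, -0.47 to 0.17 for Hbb, -0.34 to 0.22 for Alas2 and -0.25 to 0.29 for Slc4a1. With vehicle Hbb ranged from -0.005 to 0.87. Of 10 member pairs, 5 passed after adjustment, against 3 within slide 2 and 8 over deviations from group means. The p-values behind the 8 can be too small, since the deviations were permuted freely. Alas2 and Slc4a1 had r = -0.0618 within slide 2. With the replicate block, 0 probes were called in every comparison, and the replicate numbers were not taken as pairs, since r of same-numbered arrays was not over 0.1 throughout (14 of 24, from -0.414 to 0.686). As a hint from the data, 12 of 16 arrays correlated best with their own number, and the median r was 0.22, against -0.062 for other pairs. Same-numbered arrays always share a slide and other pairs often do not, so these medians do not separate number from slide. Arrays give no counts, and Epb42, 3 Hba-a3 values and the lowest value of the second Hbq1b probe were limited by signal over background.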
